A study of Mus musculus with 6 samples.

Results

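The genes of the heterotrimeric G proteins and of the regulators of G protein signalling (RGS proteins) were examined in mouse synaptoneurosomes, a brain fraction enriched in pinched-off synaptic terminals with both pre- and postsynaptic parts. Members were the genes whose symbol begins with Gna, Gnb, Gng or Rgs in the form of a subunit or RGS gene, with Gnas left out by the rule. The rule used symbols only and gave 55 of the 21958 protein-coding genes in the counts. They comprised 15 alpha, 5 beta and 12 gamma subunits, 21 RGS proteins and 2 RGS anchor proteins. Both groups came from FVB mice aged 6 to 8 weeks, and from the hippocampus with neighbouring cortex. One group held 3 libraries of total RNA from unstimulated synaptoneurosomes. The other held 3 libraries of RNA from the polyribosomal fractions of a sucrose gradient, made after the NMDA receptors were stimulated with NMDA (50 µM) and glutamate (10 µM) for 30 s, then quenched with the receptor blocker APV at 120 µM and left for 20 min. Per the study's methods, these fractions left out single ribosomes (monosomes) and RNA granules, so RNA held there is not in the polyribosome libraries. Synaptoneurosomes of pooled mice were divided into aliquots, and equal replicate numbers were read as a shared preparation. Per the study's methods, unstimulated controls stayed on ice with the protein synthesis inhibitor cycloheximide, while stimulated samples were warmed and incubated. The groups thus differed in stimulation, in this handling and in fraction at the same time, so these effects cannot be told apart. The labels do not say which mice a replicate came from, so p-values measure the spread between these libraries.

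A heterotrimeric G protein carries the signal of a receptor such as a muscarinic, metabotropic glutamate, dopamine or GABA-B receptor to enzymes and channels in the cell. The alpha subunit binds GTP when the receptor is active and separates from the paired beta and gamma subunits, and each part of the complex then acts on effectors such as adenylyl cyclase, phospholipase C beta and inwardly rectifying potassium channels. RGS proteins shorten the signal by speeding up the hydrolysis of GTP on alpha subunits. At synapses these proteins set transmitter release and the excitability of the postsynaptic cell, and gamma subunits carry a lipid at their last residues that holds the complex at the membrane.

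The gamma subunits gave the widest range of differences among the members, and 3 of them are shown because they moved apart. The coding sequences of Gng13, Gng2 and Gng5, from the Gencode vM21 transcripts of GRCm38, run over the exons of chr17:25717171-25719406 on the plus strand, chr14:19872559-19977627 on the minus strand and chr3:146499807-146505572 on the plus strand, with introns left out. Capitals mark the last 4 codons before the stop codon, the box at whose cysteine the lipid is attached.
Gng13: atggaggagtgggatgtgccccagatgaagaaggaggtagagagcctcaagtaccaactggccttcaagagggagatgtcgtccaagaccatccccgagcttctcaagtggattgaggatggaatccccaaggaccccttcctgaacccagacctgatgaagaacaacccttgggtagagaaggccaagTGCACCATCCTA
Gng2: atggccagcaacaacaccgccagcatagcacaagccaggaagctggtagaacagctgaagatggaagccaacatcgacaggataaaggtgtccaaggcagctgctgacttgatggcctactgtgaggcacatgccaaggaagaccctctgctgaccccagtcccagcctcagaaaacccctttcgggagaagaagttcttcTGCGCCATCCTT
Gng5: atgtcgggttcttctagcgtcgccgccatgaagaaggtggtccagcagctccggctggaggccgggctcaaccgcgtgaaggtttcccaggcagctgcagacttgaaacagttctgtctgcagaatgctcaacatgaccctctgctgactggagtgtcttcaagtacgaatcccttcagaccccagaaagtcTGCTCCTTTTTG
The 3 coding sequences were 201, 213 and 204 bases long. Aligned in pairs, Gng13 was identical to Gng2 at 52.3% of positions and to Gng5 at 51.9%, and Gng2 to Gng5 at 55.9%.

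Whole-number counts per gene summed to between 5294482 and 7361580 in the polyribosome libraries and between 1044955 and 3738022 in total RNA, of which replicate 3 was the shallowest. Levels are given in CPM, which is the count scaled to a common library size after TMM normalization. A single count was worth 0.135 CPM in the deepest library and 0.959 CPM in the shallowest. The fold change is polyribosome over total RNA on the log2 scale, from edgeR's quasi-likelihood test. Its p was adjusted after Benjamini and Hochberg over the 12255 genes tested (edgeR adjusted p), and the threshold was 0.01. In bulk fractions, fewer particles of a kind and less RNA in each cannot be told apart. The filter on low counts left 39 of the 55 members for testing, and 34 of them had at least 10 counts in every library. Rgs11 and Rgs16 passed the filter through the total RNA libraries alone, so a lower value on polyribosomes was favoured for them by the filter, and counts are also given without them.

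Most members lay close to the other genes of these libraries. In the main fit, which did not pair libraries by replicate, Gng13 was lower on polyribosomes and was the only member past the threshold (1 of 39, 2.56%). Over all genes tested the edgeR adjusted p passed the threshold for 0.71% in the higher and 2.36% in the lower direction. The count of higher members was 0 with edgeR, and 4 were higher and 8 lower at an unadjusted p under 0.05, against 15.4% and 17.1% of all genes in those directions. DESeq2 called 1 member higher (Gng5) and 3 lower (Gng13, Rgs7 and Rgs7bp), where it called 3.31% of 9712 genes with an adjusted p higher and 3.83% lower. It gave no adjusted p for Gng11, Rgs9, Rgs11, Rgs16 and Rgs19. With the replicate number as a block, edgeR called 3 members higher (Gnai2, Gnb2 and Gng5) and 7 lower (Gng13, Gng2, Rgs5, Rgs7, Rgs11, Rgs17 and Rgs7bp), which was 25.6% of those tested. Without Rgs11 and Rgs16 the block called 3 higher and 6 lower of 37. The block also called 11.8% of all genes higher and 13.2% lower, so the members' share was near the background. The 3 libraries of each group did not overlap for 6 members in the higher direction (15.4%, against 17.4% of all genes) and for 8 in the lower (20.5%, against 18.9%).

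Of the 22 subunits tested, 12 had a positive and 10 a negative log2 fold change, with a median of 0.10. Their values ran from -1.79 to 1.05. Of the 16 RGS proteins tested, 4 were positive and 12 negative, with a median of -0.34 and values from -1.51 to 0.41. Without Rgs11 and Rgs16, 4 were positive and 10 negative, with a median of -0.33. The 2 ranges overlapped, and the difference between the groups of genes was not tested. Over all genes 50.1% were positive and the median was 0.00. Scaling by library totals alone moved the median of all genes by -0.11 and that of the subunits to -0.01, so directions are relative to that shift. Relative to the median of all genes, the RGS median was -0.34 and ran from -0.39 to -0.26 when single libraries were left out, and the subunit median was 0.09 and ran from 0.03 to 0.15. With the block and an offset for base composition and length they were -0.31 and 0.05. The summed level of the RGS proteins was 502, 488 and 461 CPM in the polyribosome libraries and 663, 619 and 595 CPM in total RNA, without overlap. The alpha subunits summed to 1812, 1852 and 1716 CPM on polyribosomes and to 1610, 1638 and 1603 CPM in total RNA, also without overlap. These sums were not tested, since the members share libraries and a few abundant genes make up most of each sum.

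**Figure D1:**
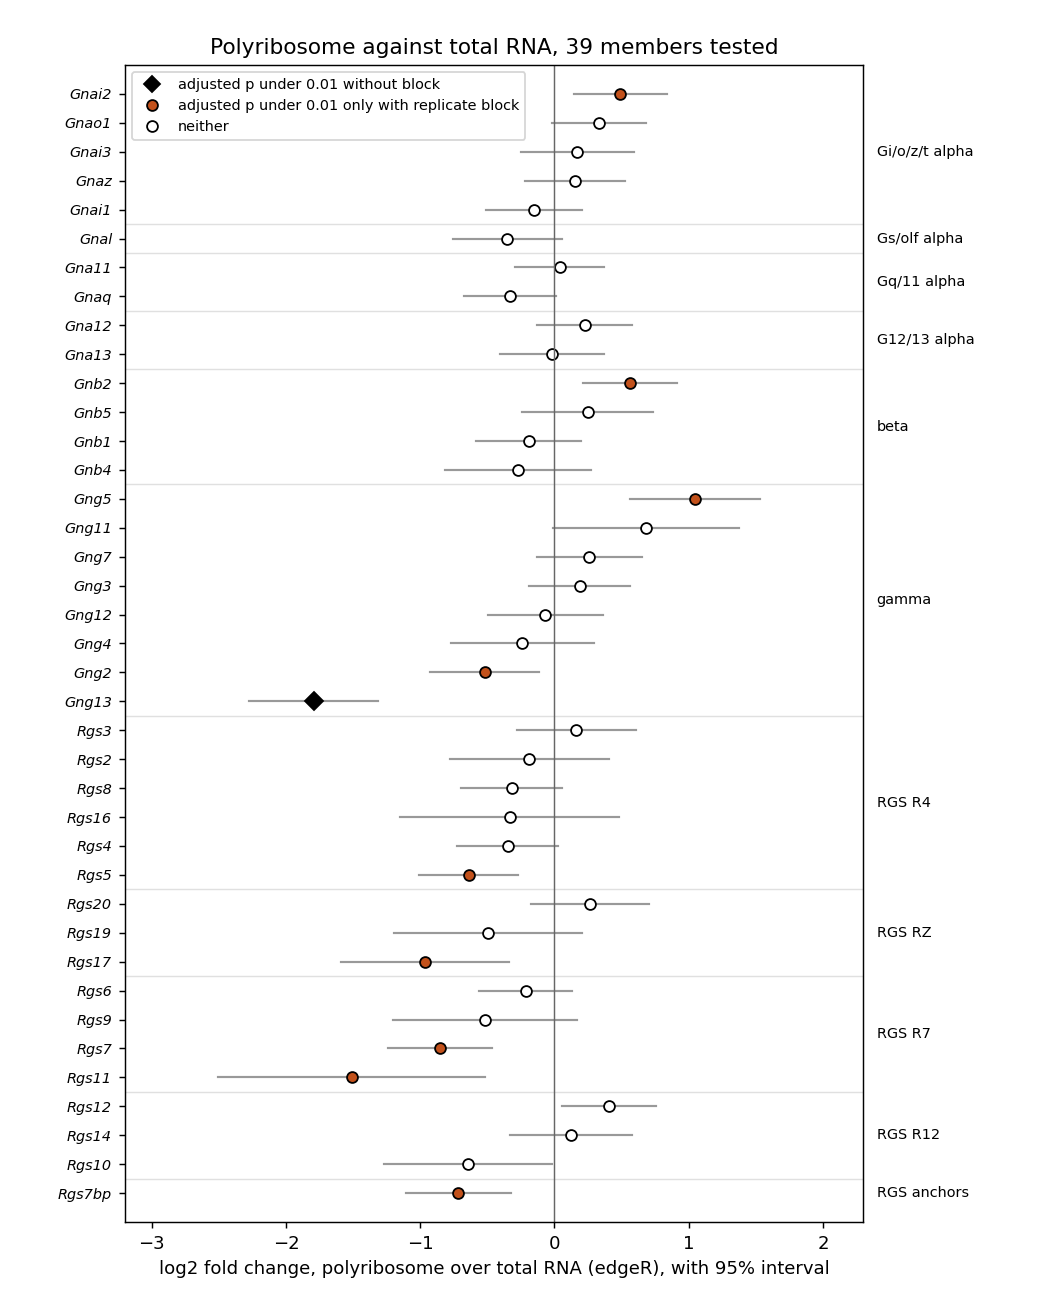
Log2 fold change of polyribosome over total RNA for the 39 members tested, grouped by role, with the edgeR 95% interval as a line. The black diamond marks Gng13 at -1.79, the only member past an adjusted p of 0.01 without the block, filled circles mark the 9 others past it with the block, and 12 of the 16 RGS proteins lie left of 0. Rgs11, among the 9, passed the filter through total RNA alone.

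Among the alpha subunits, Gnao1 and Gnai2 belong to the inhibitory class, which lowers cyclic AMP and releases beta-gamma to channels. They were the most abundant per transcript length in total RNA, at 146 ± 8.14 and 86.5 ± 8.51 CPM per kb (SD, n = 3). Divided by the merged exons of each gene instead, their order was reversed, at 58.4 and 83.3 CPM per kb. Gnai2 stood at 274, 281 and 256 CPM in polyribosome replicates 1, 2 and 3 and at 207, 197 and 171 CPM in total RNA. All 3 polyribosome values lay above all total RNA values. The log2 fold change was 0.49 (SE 0.16, 95% interval 0.15 to 0.84), and the edgeR adjusted p was 0.0529 without and 8.4e-04 with the replicate block. Gnao1, the most abundant alpha subunit of neurons, was measured at 606, 618 and 688 CPM on polyribosomes and at 483, 498 and 538 CPM in total RNA. These groups did not overlap either, but the log2 fold change of 0.33 (SE 0.16) had an edgeR adjusted p of 0.173, and 0.0277 with the block. The other inhibitory alpha subunits, Gnai1, Gnai3 and Gnaz, had log2 fold changes from -0.15 to 0.17, with overlapping groups.

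Gnal, the alpha subunit that stimulates adenylyl cyclase in olfactory neurons and the striatum, was the only stimulatory member, since Gnas is not among the members. It was measured at 121, 135 and 84.4 CPM on polyribosomes and 149, 159 and 124 CPM in total RNA. Each polyribosome library lay below its own partner while the groups overlapped, and the log2 fold change was -0.35 (SE 0.19, edgeR adjusted p = 0.222). Gna11 and Gnaq, which activate phospholipase C beta, had similar levels per length in total RNA, 30.5 ± 2.80 and 30.2 ± 1.76 CPM per kb. Gna11 was measured at 105, 109 and 108 CPM on polyribosomes against 113, 105 and 94.0 CPM in total RNA. Its groups overlapped, and the log2 fold change was 0.04 (SE 0.16, edgeR adjusted p = 0.891). Gnaq stood at 134, 149 and 123 CPM on polyribosomes against 160, 179 and 173 CPM in total RNA. Its groups did not overlap, with a log2 fold change of -0.33 (SE 0.16, edgeR adjusted p = 0.164). Gna12 was measured at 209, 185 and 168 CPM against 150, 157 and 176 CPM. The groups overlapped, and the log2 fold change was 0.23 (SE 0.16, edgeR adjusted p = 0.368). The related Gna13 had a log2 fold change of -0.02.

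Beta subunits form the core on which gamma subunits fold. Gnb1 was the most abundant of them per length in total RNA (143 ± 26.3 CPM per kb, SD, n = 3), followed by Gnb2 (41.1 ± 2.41 CPM per kb). Gnb1 stood at 423, 423 and 342 CPM on polyribosomes and 490, 507 and 356 CPM in total RNA. The groups overlapped, and the log2 fold change was -0.19 (SE 0.18, edgeR adjusted p = 0.506). Gnb2 was measured at 108, 101 and 128 CPM on polyribosomes and 73.3, 74.3 and 81.5 CPM in total RNA. All polyribosome values lay above all total RNA values, with a log2 fold change of 0.56 (SE 0.16, 95% interval 0.21 to 0.91). The edgeR adjusted p of Gnb2 was 0.0347 without the block and 3.2e-04 with it. Gnb5, the beta subunit that pairs with R7 RGS proteins in place of a gamma subunit, had a log2 fold change of 0.25, and Gnb4 had -0.27, both with overlapping groups.

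Gng13, a gamma subunit known from taste and retinal bipolar cells and also found in the brain, showed the largest difference of all members. It stood at 5.14, 4.82 and 4.32 CPM on polyribosomes and 17.9, 17.1 and 13.4 CPM in total RNA. The groups were far apart, and the lowest total RNA library was above the highest polyribosome library by more than the spread within either group. The log2 fold change was -1.79 (SE 0.22, 95% interval -2.27 to -1.31) with an edgeR adjusted p of 9.0e-04, and 6.3e-11 with the block. Leaving out each library in turn kept it between -1.86 and -1.72. Without total replicate 2 the edgeR adjusted p was 0.0103, just above the threshold. The transcribed strand opposite to Gng13 holds Chtf18, which shares 397 of the 773 exon bases of Gng13 and was near the limit of detection, at 0.97 CPM on polyribosomes and 0.36 CPM in total RNA.

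Gng5, a gamma subunit present in many cell types, was measured at 22.0, 24.0 and 33.6 CPM on polyribosomes and 11.2, 13.7 and 14.4 CPM in total RNA. Every polyribosome library was above every total RNA library, and the log2 fold change was 1.05 (SE 0.23, 95% interval 0.56 to 1.53). Its edgeR adjusted p was 0.0108 without the block and 8.7e-06 with it. Gng2, a common partner of the beta subunits in the brain, was measured at 56.7, 50.9 and 35.4 CPM against 73.5, 68.3 and 62.3 CPM. The groups did not overlap, with a log2 fold change of -0.52 (SE 0.19) and an edgeR adjusted p of 0.0752, and 0.0017 with the block. Gm48283, on the strand opposite to Gng2, shares 897 of the 4390 exon bases of Gng2 and was not analysed here. Gng7, which pairs with Gnal in the striatum, was the most abundant gamma subunit per length in total RNA (38.6 ± 2.35 CPM per kb). It was measured at 197, 150 and 129 CPM on polyribosomes against 128, 142 and 128 CPM, with overlapping groups and a log2 fold change of 0.26 (SE 0.18, edgeR adjusted p = 0.342). Gng11 was measured at 5.82, 7.68 and 10.7 CPM against 3.72, 6.03 and 5.75 CPM. These values overlapped, and the log2 fold change of 0.68 (SE 0.32) had an edgeR adjusted p of 0.160. Gng3, Gng4 and Gng12 had log2 fold changes from -0.24 to 0.19. The groups of Gng3 did not overlap, at means of 41.9 CPM on polyribosomes and 35.8 CPM in total RNA (edgeR adjusted p = 0.488). Bscl2, on the strand opposite to Gng3, shares 398 of its 1643 exon bases and stood higher, at means of 89.4 and 71.3 CPM. Whether reads of Bscl2 are in the counts of Gng3 was not tested.

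**Figure D2:**
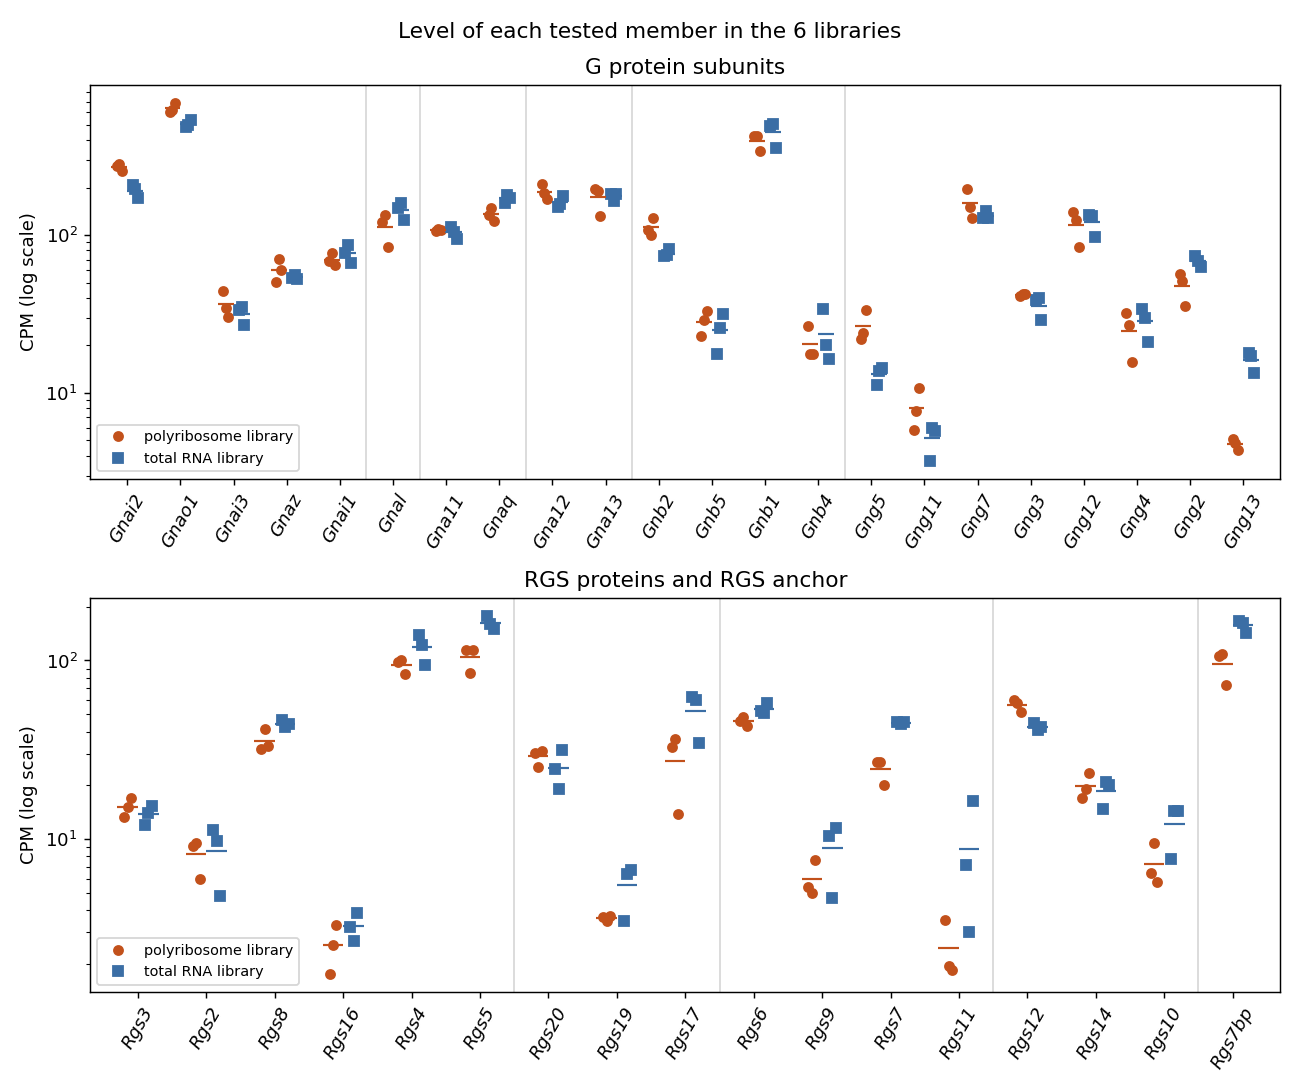
Level in CPM (log axis) of the 39 members tested in each of the 6 libraries, with circles for polyribosome libraries, squares for total RNA libraries and short lines for the group means. The circles of Gng13 sit between 4.32 and 5.14 CPM below squares between 13.4 and 17.9 CPM, and the order is the other way round for Gng5, Gnb2 and Gnai2.

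RGS proteins of the R7 family bind Gnb5 and act on inhibitory alpha subunits at synapses. The 3 members that passed the filter in all libraries had negative log2 fold changes, with a median of -0.52, and so did Rgs11. Rgs7, abundant in hippocampal and cortical neurons, was measured at 27.1, 27.1 and 20.0 CPM on polyribosomes and 45.2, 44.2 and 45.1 CPM in total RNA. The total RNA values were nearly equal and all lay above the polyribosome values. It had a log2 fold change of -0.85 (SE 0.18, 95% interval -1.24 to -0.46) and an edgeR adjusted p of 0.0101, just above the threshold, and 2.9e-06 with the block. Rgs6 was the most abundant of the family per transcript length in total RNA (24.3 ± 1.60 CPM per kb), with Rgs7 next (21.2 ± 0.255 CPM per kb). Divided by the merged exons of each gene instead, their order was reversed, at 7.33 CPM per kb for Rgs6 and 17.8 for Rgs7. Rgs6 was measured at 46.0, 48.1 and 43.2 CPM against 52.1, 50.9 and 57.5 CPM. The groups did not overlap but were close, and the log2 fold change was -0.21 (SE 0.16, edgeR adjusted p = 0.388). Rgs11 was measured at 3.52, 1.96 and 1.85 CPM against 7.20, 3.01 and 16.3 CPM. Total replicate 3 stood far above the others and the groups overlapped. The log2 fold change was -1.51 (SE 0.47) and ran from -2.00 to -1.07 when single libraries were left out, and it is a description only, since Rgs11 passed the filter through total RNA alone. Rgs9, the striatal and retinal member, had a log2 fold change of -0.52 with overlapping groups.

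Rgs7bp, the lipid-anchored protein that tethers R7 complexes to the membrane, had a difference of the same sign as Rgs7. It was measured at 106, 109 and 72.9 CPM on polyribosomes and 167, 163 and 143 CPM in total RNA. No polyribosome value reached the lowest total RNA value. It had a log2 fold change of -0.72 (SE 0.18, 95% interval -1.11 to -0.33) and an edgeR adjusted p of 0.0210, and 1.7e-06 with the block. Gnb5, the partner of these proteins, had a log2 fold change of 0.25 (SE 0.23, edgeR adjusted p = 0.485), with overlapping groups. The log2 ratio of Rgs7 to Gnb5 in CPM was 0.24, -0.10 and -0.72 in the polyribosome libraries and 1.36, 0.78 and 0.51 in total RNA. The ratio was lower on polyribosomes in every replicate, by 1.08 on average, although the ratio also differed between replicates. The ratio was not tested.

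The R4 family holds mostly short RGS proteins with little beyond the RGS domain, but Rgs3 is longer, with 2898 coding bases. The 6 tested R4 members had a median log2 fold change of -0.33, and 5 were negative. The median was -0.14 with the block and the offset for base composition and length. Without Rgs16, 4 of 5 were negative, with a median of -0.32. Rgs4 and Rgs5 were the most abundant RGS genes per length in total RNA, at 40.3 ± 7.79 and 39.8 ± 3.29 CPM per kb. Rgs4, a neuronal regulator of Gnaq and inhibitory alpha subunits, was measured at 98.3, 101 and 83.6 CPM against 139, 123 and 94.0 CPM. The groups overlapped and each polyribosome library lay below its partner, with a log2 fold change of -0.35 (SE 0.18, edgeR adjusted p = 0.187). Rgs5, known as a marker of the pericytes of brain capillaries, was measured at 115, 85.6 and 115 CPM against 177, 161 and 151 CPM. The groups did not overlap, and the log2 fold change was -0.64 (SE 0.17, 95% interval -1.01 to -0.27), with an edgeR adjusted p of 0.0262 and of 1.1e-05 with the block. Of the 7 genes on the mural cell marker list 5 were tested. All 5 had positive values, of which 0 passed the threshold without the block and 3 with it, where 11.8% of all genes were called higher with the block. The sum of the list was 524 to 929 CPM on polyribosomes against 389 to 476 CPM in total RNA. How these markers bear on the value of Rgs5 was not tested. Rgs8 had a log2 fold change of -0.32 without overlap, and Rgs2, Rgs3 and Rgs16 had values from -0.33 to 0.16 with overlap.

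The RZ family prefers Gnaz and other inhibitory alpha subunits, and 3 members were tested and Rgs17 passed the threshold with the block. Rgs17 was measured at 32.6, 36.2 and 13.8 CPM on polyribosomes and 62.3, 60.3 and 34.5 CPM in total RNA. Replicate 3 was low in both groups, so the groups overlapped while each polyribosome library lay far below its partner. The log2 fold change was -0.96 (SE 0.29) with an edgeR adjusted p of 0.0387, and the SE fell to 0.14 and the edgeR adjusted p to 1.2e-07 with the block. Rgs20, the most abundant of the family per length, was measured at 30.3, 25.5 and 31.3 CPM against 24.6, 19.1 and 31.6 CPM. The groups overlapped, with a log2 fold change of 0.27 (SE 0.20, edgeR adjusted p = 0.394). Rgs19 had -0.50, with overlap.

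The R12 family holds RGS proteins of unequal size. Rgs12, a large scaffold with several domains, was the RGS gene with the highest log2 fold change. It was measured at 59.8, 57.5 and 51.7 CPM on polyribosomes against 44.4, 40.9 and 42.2 CPM. The groups did not overlap, and the log2 fold change was 0.41 (SE 0.17, 95% interval 0.05 to 0.76, edgeR adjusted p = 0.104), with an edgeR adjusted p of 0.0106 in the block. Rgs10, a short protein abundant in microglia, was measured at 6.49, 9.49 and 5.76 CPM against 7.70, 14.4 and 14.4 CPM. Its groups overlapped, and the log2 fold change was -0.64 (SE 0.29, edgeR adjusted p = 0.142). All 10 microglial markers had positive values, of which 0 passed the threshold without the block and 4 with it, where 11.8% of all genes were called higher with the block. Their sum was 956 to 1111 CPM on polyribosomes against 628 to 863 CPM in total RNA. How these markers bear on the value of Rgs10 was not tested. Rgs14, known from hippocampal area CA2, had 0.12, with overlapping groups.

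The makeup of each family was compared as each member's share of the counts of its pool, scaled by transcript length. This measure does not depend on scaling between libraries. It was not corrected for base composition, unlike the offset fit below. The log2 fold changes of Gnb2 and Gnai2 shrank in that fit, while those of Gng13 and Gng5 grew in size. In all, 24 shares of at least 5% were tested by a two-sided exact permutation test over the libraries, whose smallest p with 3 against 3 is 0.1 (0.185 after Benjamini-Hochberg adjustment). No share could therefore pass 0.05. The groups did not overlap for 13 of the 24 shares, which depend on each other within a pool, and no share over all genes exists to read that count against. Gng13 made up 4.37, 4.55 and 4.61% of the gamma pool on polyribosomes and 15.9, 14.8 and 14.2% in total RNA (exact permutation p = 0.1). Gng5 held 5.57, 6.72 and 10.6% on polyribosomes and 2.95, 3.53 and 4.52% in total RNA, without overlap (exact permutation p = 0.1). Gng7 led the pool in both groups, with 31.3 ± 3.37% on polyribosomes and 26.0 ± 2.23% in total RNA (SD, n = 3). These groups did not overlap but nearly touched.

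Within the alpha pool, Gnai2 held 23.3, 23.3 and 22.6% on polyribosomes and 20.3, 18.9 and 17.1% in total RNA, without overlap (exact permutation p = 0.1). Gnaq held 4.52 ± 0.297% against 6.56 ± 0.375% and Gnal 6.15 ± 1.23% against 8.98 ± 0.972% (SD, n = 3), also without overlap. Gnao1, the leading alpha subunit by transcript length, held 34.9 ± 3.52% and 31.8 ± 2.28%, with overlap (exact permutation p = 0.3). Of the beta pool, Gnb2 made up 27.7, 26.0 and 34.6% on polyribosomes and 18.7, 18.3 and 24.7% in total RNA, without overlap. Gnb1 held 61.2 ± 5.62% against 70.5 ± 5.76% and its groups overlapped (exact permutation p = 0.3). In the RGS pool Rgs7 held 7.52 ± 1.04% against 10.5 ± 0.0923%, and Rgs12 6.63 ± 0.276% against 3.86 ± 0.0935%, both without overlap. The shares of Rgs4 and Rgs5 overlapped between the groups.

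**Figure D3:**
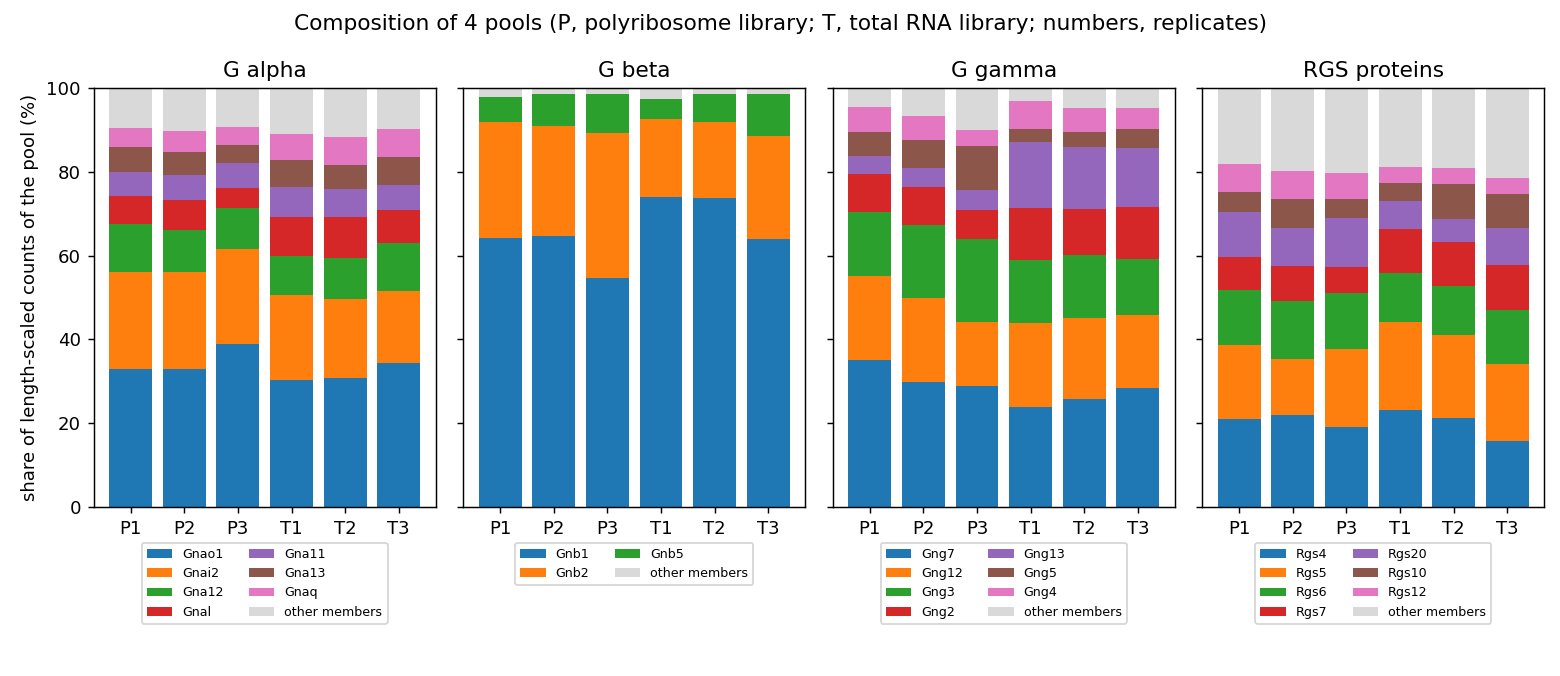
Share (%) of each main member in the length-scaled counts of its pool, in polyribosome libraries P1 to P3 and total RNA libraries T1 to T3, from 0 to 100%. The Gng13 segment of the gamma pool is 4.37 to 4.61% in the polyribosome libraries and 14.2 to 15.9% in total RNA, while the leading member of each pool is the same in both groups apart from T3 of the RGS pool, where Rgs5 exceeds Rgs4.

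Because the log2 fold change went with base composition and length over all genes, the block fit was repeated with an offset for both. In that fit 2 members were higher (Gng5 and Gnai3) and 4 lower (Gng13, Rgs7, Rgs10 and Rgs11, or 3 without Rgs11), where 9.07% of all genes were higher and 7.56% lower. The log2 fold change of Gng13 was then -2.28 and that of Gng5 1.32, both further from 0 than without the offset. Rgs7 kept -0.75 with an edgeR adjusted p of 4.0e-06, and Rgs11 had -1.78. The values of Gnb2 (0.10), Gnai2 (0.21), Gng2 (-0.20), Rgs5 (-0.27), Rgs17 (-0.32) and Rgs7bp (-0.31) came closer to 0 and were no longer past the threshold. Gnai3, at 44.5, 34.5 and 30.1 CPM against 33.5, 34.8 and 26.9 CPM, overlapped between groups and had 0.54 with the offset. Across the 39 members, the Spearman correlation of the log2 fold change in the main fit was 0.27 with GC content and -0.13 with the length of the 3′ untranslated region, against 0.54 and -0.26 across 12212 genes. With transcript length, which the offset used, it was -0.09 and -0.33. For the members' values with block and offset, the 3 correlations had the opposite sign, at -0.19, 0.23 and 0.19. Whether the offset suits these members was not tested. These points share libraries, and genes are not independent replicates.

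**Figure D4:**
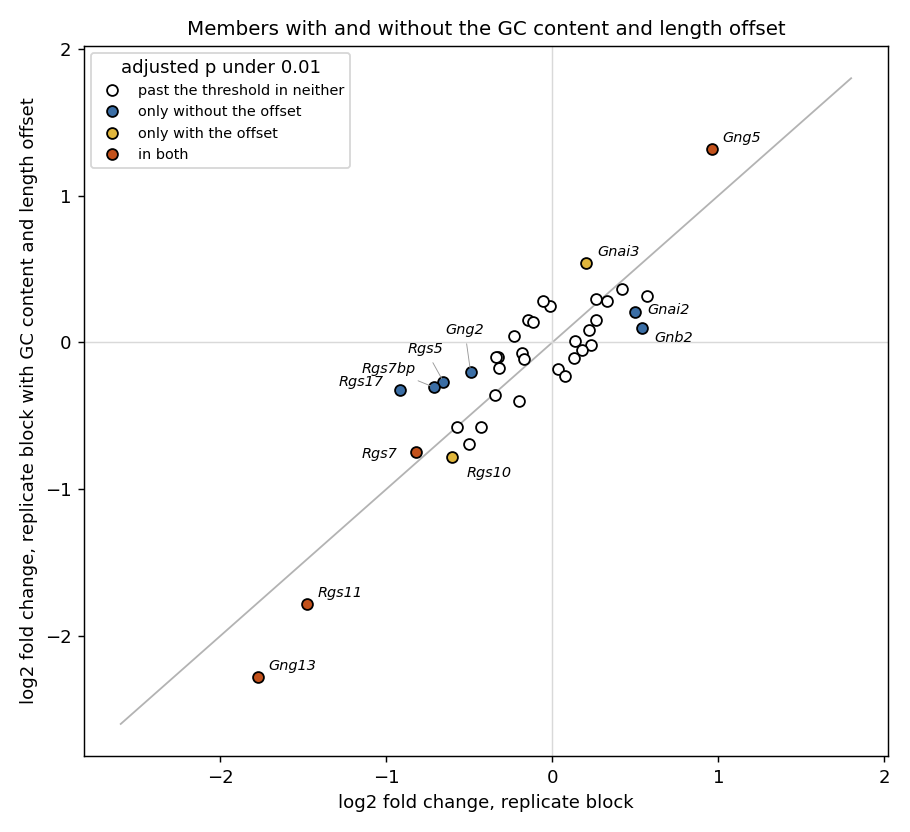
Log2 fold change of the 39 members in the block fit (x axis) and in the block fit with the GC content and length offset (y axis), with the line of equal values. Gng13, Rgs11, Rgs7 and Gng5 are past an adjusted p of 0.01 in both, while 6 members are past it only without the offset and 2 only with it. The value of Rgs11 is a description only, since it passed the filter through total RNA alone.

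The bases around the start codon, which bear on how ribosomes choose where to begin, are shown for Gng13 and Gng5, which had the lowest and the highest log2 fold change, and for the 2 most abundant beta subunits, from 10 bases before the start codon, in capitals, to 7 after it (Gencode vM21 transcripts).
Gng13: ccccgacgccATGgaggagt
Gng5: cccgagcgccATGtcgggtt
Gnb1: agacgtgaagATGagtgaac
Gnb2: gcccggcgccATGagtgagc
A purine (A or G) at the third base before the start codon together with a G right after it was found in 11 of the 39 members (28.2%) and in 45.7% of 11939 genes. Of the 4 shown, Gng13 carries both letters. Gng5, Gnb1 and Gnb2 carry the purine but not the G. Whether these letters go with the log2 fold change was not tested.

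The effectors and regulators of the pathway were read from a list of 42 genes, of which 32 were tested. Their median log2 fold change was 0.02, with 17 positive and 15 negative, and 0 passed the threshold with edgeR without the block or with DESeq2. At an unadjusted p under 0.05 edgeR gave 2 higher and 5 lower. The phospholipases C beta, the effectors of Gnaq and Gna11, held all the calls with the block, which were 1 gene of the 32 higher and 2 lower, below the 11.8% and 13.2% over all genes. Plcb3 stood at 58.2, 50.0 and 60.1 CPM on polyribosomes and 30.3, 35.8 and 43.2 CPM in total RNA, without overlap. Its log2 fold change was 0.66 (SE 0.18), with an edgeR adjusted p of 0.0286 and of 9.7e-05 with the block. Plcb1, the main isoform of hippocampal neurons, was measured at 155, 151 and 119 CPM against 198, 184 and 178 CPM, also without overlap. It had -0.40 (SE 0.17), with an edgeR adjusted p of 0.113 and of 0.0076 with the block. Plcb4 had -0.53 (SE 0.20), with an edgeR adjusted p of 0.0806 and of 0.0078 with the block. Of 9 adenylyl cyclases tested 8 were positive, with a median of 0.15, and of 5 receptor kinases tested 4 were negative, with a median of -0.35. The 3 tested subunits of the inwardly rectifying potassium channels that bind beta-gamma had a median of -0.01, and the 2 tested arrestins 0.05.

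The 9 neuronal markers were present in all libraries, and 5 had positive and 4 negative log2 fold changes. Their sum was 9010 to 10913 CPM on polyribosomes and 8277 to 9847 CPM in total RNA. All 10 astrocyte markers had positive log2 fold changes, with sums of 42275 to 45143 CPM against 33526 to 38753 CPM. Of 8 oligodendrocyte markers 7 were positive, with sums of 10993 to 14840 CPM against 7938 to 11087 CPM, and of 8 endothelial markers 6 were positive, with sums of 347 to 606 CPM against 371 to 386 CPM. With the block, 7 astrocyte, 4 oligodendrocyte, 1 endothelial and 3 neuronal markers were called higher, where 11.8% of all genes were. In the lower direction it called 1 neuronal marker, where 13.2% of all genes were called. Without the block, 1 oligodendrocyte marker, Cldn11, was called higher. None of the markers was at 0 in all libraries. These cells also hold G protein subunits such as Gnai2, Gng5 and Gng12, and the part of the markers' difference in the values of members was not tested.

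The 16 members left out of the tests had between 0 and 49 counts over all libraries. They comprise the sensory subunits Gnat1, Gnat2, Gnat3, Gngt1, Gngt2, Gnb3 and Gng8 of photoreceptors, taste and olfactory cells, the alpha subunits Gna14 and Gna15 of the Gq class, Gng10, the RGS genes Rgs1, Rgs13, Rgs18, Rgs21 and Rgs22, and the retinal anchor Rgs9bp. Gna15 had the most, with 17, 15 and 7 counts on polyribosomes and 8, 2 and 0 in total RNA. Gnat1, Gnat3, Gnb3, Gngt1, Rgs13 and Rgs21 had 0 counts in every library, which allows a level of up to 0.110 CPM over the 6 libraries (3 counts of the 27203418 in all, counting error only). Rgs18 had 2, 4 and 1 counts in total RNA and 0 in each polyribosome library, and Gng10 had 5, 3 and 5 counts on polyribosomes and 1, 0 and 0 in total RNA. These counts are too few for a comparison.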

How the data were processed

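RNA of 3 polyribosome and 3 total RNA libraries was compared. Per the labels and the study's methods, the authors removed ribosomal RNA, made libraries that mark the strand, mapped them with STAR 2.5.2b to GRCm38 and deposited raw counts for genes of Gencode vM6, with 6 columns of their own DESeq2 comparison, which were not used. The strand setting of the counting is not given in the sources used here, so overlapping genes are uncertain. The counts were compared with edgeR 4.0.16 (TMM, filterByExpr, quasi-likelihood test, group as the only term, Benjamini-Hochberg adjustment, threshold 0.01) in R 4.3.3. Library totals ranged from 1044955 to 7361580 counts, and replicates differed by more than sampling noise. Alternatives were DESeq2 1.42.0, other scaling, no filter, leaving out single libraries, a replicate block, and the block with an offset for GC content and length (Gencode vM21). The methods describe aliquots of a shared preparation but do not tie replicate numbers to it, so the pairing is a reading of the labels. Deviations of libraries with the same replicate number correlated at 0.37, 0.26 and 0.38. Libraries with different numbers were not compared in this way, so these values do not settle the pairing. Libraries with the same number were taken as pairs on this reading in the fits with the replicate block. The main fit and the exact permutation test did not use this pairing. Full values are given for members past the threshold, the most abundant of each role class per length, and the 5 largest rises and falls at a mean of at least 5 CPM. Members past it only with the block, or chosen after their values were seen (Gnaq, Gnai3), are named too. Members and lists were chosen with earlier results of these data known. The procedure was tested on simulated counts.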

Additional observations from a re-analysis of the deposited data

How the results depend on the processing

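The replicate block changed the number of calls most, with 3 members higher and 7 lower in place of 0 and 1, and 1441 and 1622 genes in place of 87 and 289 over all. Without Rgs11 and Rgs16, which passed the filter through total RNA alone, 6 members were lower with the block and 3 with block and offset. Members higher and lower numbered 1 and 5 without the filter, 2 and 4 with block and offset, and 1 and 3 with DESeq2, and library totals gave 2 lower. Genes higher and lower over all numbered 476 and 566 without the filter and 1112 and 926 with block and offset, while 42 were higher with library totals and 321 with DESeq2 (372 lower). Leaving out single libraries gave 0 to 1 members lower, 0 to 61 genes higher and 22 to 208 lower. The members' median of -0.19 was -0.30 with library totals, -0.16 without the filter, -0.15 with the block, -0.10 with block and offset, -0.14 with DESeq2 and -0.23 to -0.040 without single libraries. The cause of these shifts was not tested.

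Of the 39 members, 27 kept their sign in every alternative run. With block and offset the sign turned for Rgs2 (0.14), Gnb4 (0.044), Rgs3 (-0.10), Gnai1 (0.15), Gna12 (-0.015), Gng12 (0.28), Gna11 (-0.18), Gna13 (0.25), Rgs14 (-0.23) and Gng3 (-0.050), with library totals for Gna11 (-0.069) and without the filter for Gna13 (0.0079). Without single libraries the ranges crossed 0 for Rgs2 (-0.33 to 0.024), Gnb4 (-0.50 to 0.13), Gnai3 (-0.0057 to 0.28), Gng12 (-0.22 to 0.12), Gnb5 (-0.0052 to 0.39), Gna11 (-0.021 to 0.094), Gna13 (-0.12 to 0.15) and Rgs14 (-0.073 to 0.26). Differences in pool share crossed 0 for Gna12 (-0.446 to 0.713 percentage points), Gnb5 (-0.550 to 2.08), Gng12 (-1.32 to 1.12), Gng4 (-1.17 to 0.0122) and Rgs4 (-1.48 to 2.15). Scaling shares by merged exon length, chosen after seeing the data, turned none of the 24. Of the members whose sign turned, Gnai3 alone was past the threshold in any setting, with block and offset (0.54). Total replicate 3 limits what can be seen of weakly expressed members.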
